A study of Mus musculus with 10 samples.

Results

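The Dppa genes Dppa2, Dppa3, Dppa4 and Dppa5a were followed in mouse embryonic stem cells. The members were taken by gene name from a table of TPM (transcript abundance per unit of length, scaled to one fixed library total), and they are 4 of 55401 genes listed. They were chosen with the difference between mutant and wild type in view, so their fold changes are given as a description, without a test. All 4 were among the 12797 genes tested, whose TPM averaged 1 or more over 10 libraries. The table lists 4 further rows whose names begin with Dppa, and none of these reached 1 TPM in a library.

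The cells were E14, a mouse embryonic stem cell line (mESC) that was not given any treatment. Wild-type cells gave 4 libraries in 2 numbered sets, and cells with the ANKRD11 Y347A mutation, made by CRISPR/Cas9 genome editing, gave 6 libraries in 3 numbered sets. Each set holds libraries numbered replicate 1 and replicate 2. What a set is, a clone or a separate culture, is not labelled, and p-values here measure only how these sets and libraries spread, which may be technical. ANKRD11 is a nuclear regulator of transcription, and the series concerns its binding to cohesin, the ring complex that folds chromosomes.

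Dppa genes were grouped by an expression pattern like that of Oct4 in the early embryo and in stem cells, and their products are not one protein family. DPPA2 and DPPA4 are DNA-binding partners with a SAP domain that keep promoters of developmental genes in a bivalent state, open to activation and free of DNA methylation, and that can activate Dux and the genes of the 2-cell embryo. DPPA3, also called Stella or PGC7, is a maternal and germ cell protein that binds UHRF1 and moves it out of the nucleus, which limits maintenance of DNA methylation. DPPA5A, also called ESG1, is a small RNA-binding protein with a KH-like domain found in stem cells and early embryos.

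On mm10, Dppa4 (ENSMUSG00000058550.15, chromosome 16, 48283733 to 48294237) and Dppa2 (ENSMUSG00000072419.5, chromosome 16, 48303908 to 48319723) lie on the plus strand, 9.7 kb apart. Dppa3 (ENSMUSG00000046323.8) occupies chromosome 6, 122626410 to 122630272, plus strand, and Dppa5a (ENSMUSG00000060461.5) chromosome 9, 78367052 to 78368177, minus strand. All are protein-coding and spliced, with 7, 8, 4 and 3 exons for Dppa4, Dppa2, Dppa3 and Dppa5a in the transcript used here. Their predicted proteins have 296, 301, 150 and 118 residues in the same order. No other annotated gene overlaps them.

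Each member has near-copies elsewhere in the genome, and reads that fit both places can be split between them. The sequences below are 90-base stretches of the coding sequence of each member, shown because the few bases in capitals in each copy are all that a read could use there to tell it from the member. They begin at coding base 149 of Dppa5a, 32 of Dppa2, 77 of Dppa3 and 22 of Dppa4.
Dppa5a: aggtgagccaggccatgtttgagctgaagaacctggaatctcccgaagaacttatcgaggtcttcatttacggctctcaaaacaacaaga
Gm6798: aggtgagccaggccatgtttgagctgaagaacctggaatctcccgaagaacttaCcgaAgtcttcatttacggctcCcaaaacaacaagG
Dppa5b: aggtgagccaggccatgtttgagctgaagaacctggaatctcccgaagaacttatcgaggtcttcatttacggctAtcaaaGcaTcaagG
Dppa2: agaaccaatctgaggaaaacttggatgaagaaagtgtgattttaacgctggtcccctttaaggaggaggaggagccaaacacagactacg
Gm9788: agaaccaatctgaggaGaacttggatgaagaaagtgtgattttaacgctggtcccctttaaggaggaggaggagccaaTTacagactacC
Dppa3: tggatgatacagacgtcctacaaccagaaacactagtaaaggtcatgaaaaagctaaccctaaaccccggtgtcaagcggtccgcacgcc
Dppa3-ps: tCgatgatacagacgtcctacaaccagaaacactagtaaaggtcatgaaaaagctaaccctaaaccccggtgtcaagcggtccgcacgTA
Dppa4: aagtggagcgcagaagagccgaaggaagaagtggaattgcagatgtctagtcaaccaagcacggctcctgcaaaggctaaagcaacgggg
Gm14058: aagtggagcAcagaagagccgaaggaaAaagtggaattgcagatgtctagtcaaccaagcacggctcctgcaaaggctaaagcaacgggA
Gm6798, Gm9788, Dppa3-ps and Gm14058 are processed pseudogenes (intronless copies of an mRNA), and Dppa5b is a duplicated pseudogene that kept its exons.

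The copies held little of the signal. A search of the members' coding sequences against all annotated transcripts found 12 genes with at least 100 aligned bases for Dppa5a, 9 for Dppa2, 5 for Dppa4 and 4 for Dppa3. At 95% identity or more there were 7, 2, 2 and 1 of these in the same order. Leaving out Pigp, a protein-coding gene with its own transcript at up to 50.15 TPM, these close copies of Dppa5a summed to at most 9.3 TPM in a library, which was at most 0.111% of Dppa5a. The copies of Dppa2 and Dppa4 reached 1.68 and 1.71 TPM, at most 4.45% and 3.07% of their members. Dppa3-ps was listed at 0.36 TPM in mutant set 1 replicate 2, which was 11.6% of Dppa3 there, and at 0 in the other 9 libraries. With the copies added to their members the log2 fold changes were -0.77 for Dppa2, -2.33 for Dppa3, -0.43 for Dppa4 and -0.15 for Dppa5a.

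The members spanned a wide range of levels. Dppa5a ranked 7 of all genes in the table by mean TPM, Dppa4 ranked 2147, Dppa2 3472 and Dppa3 7383. The order Dppa5a, Dppa4, Dppa2, Dppa3 held in each of the 10 libraries, and no neighbouring pair in that order came close within a library. Of the other rows named Dppa, Dppa1 was listed at 0.2 TPM in mutant set 1 replicate 1 and at 0 elsewhere, and Dppa5b and Dppa5c were listed at 0 in all libraries.

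**Figure D1:**
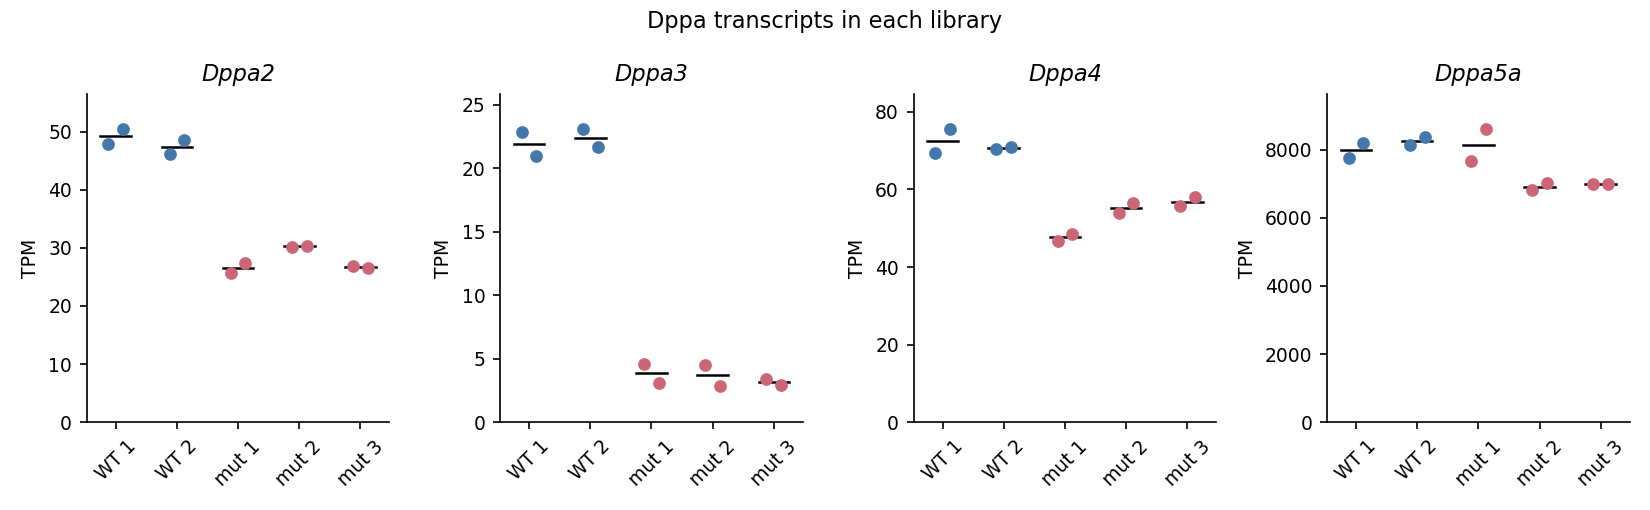
TPM of each member on its own linear axis from 0, by library, with wild-type sets (WT 1 and 2) in blue, mutant sets (mut 1 to 3) in red and a bar at each set mean. Mutant points lie below all wild-type points for Dppa2, Dppa3 and Dppa4, while mutant set 1 sits at the wild-type level for Dppa5a.

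Dppa3 differed most between genotypes. Wild-type set 1 gave 22.9 and 20.95 TPM and wild-type set 2 gave 23.1 and 21.6. Mutant set 1 gave 4.61 and 3.11 TPM, mutant set 2 gave 4.5 and 2.88, and mutant set 3 gave 3.41 and 2.97. Every mutant library lay far below every wild-type library. The mean was 22.1 ± 0.318 TPM in wild type (SD of set means, n = 2 sets) and 3.58 ± 0.348 in the mutant (n = 3 sets), 6.18-fold lower, with a log2 fold change of -2.35 ± 0.11 (SE). Fold changes here are differences of log2(TPM + 1), and the added 1 makes those of low genes too small. With a pseudocount of 0.1 the log2 fold change was -2.62. RNA of a bulk culture does not tell fewer cells that express Dppa3 from less Dppa3 RNA in each cell, and the same holds for every gene below.

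Dppa2 was next in size of difference. The wild-type libraries stood at 47.9 and 50.5 TPM (set 1) and 46.2 and 48.6 TPM (set 2). The mutant libraries stood at 25.6 and 27.5 TPM (set 1), 30.2 and 30.3 TPM (set 2) and 26.9 and 26.6 TPM (set 3). The groups did not overlap, and the libraries of a set lay close together. The means were 48.3 ± 1.27 TPM over wild-type sets and 27.9 ± 2.07 TPM over mutant sets, 57.7% of wild type, with a log2 fold change of -0.77 ± 0.09.

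Dppa4, the partner of Dppa2 in protein and in place, differed less. Its wild-type values were 69.4 and 75.7 TPM (set 1) and 70.4 and 70.9 TPM (set 2). Its mutant values were 46.8 and 48.6 TPM (set 1), 54 and 56.6 TPM (set 2) and 55.7 and 58.03 TPM (set 3). All mutant libraries were again below all wild-type libraries, with mutant set 1 the lowest. The means were 71.6 ± 1.33 and 53.3 ± 4.90 TPM, 74.5% of wild type, with a log2 fold change of -0.42 ± 0.09.

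Dppa5a showed a small difference that was not shared by all mutant sets. Wild-type sets 1 and 2 held 7756 and 8190 TPM and 8146 and 8369 TPM. Mutant set 1 held 7670 and 8610 TPM, mutant set 2 held 6821 and 7007, and mutant set 3 held 6994 and 6996. The replicates of mutant set 1 lay on either side of the wild-type libraries, while sets 2 and 3 lay below every wild-type library. The means were 8115 ± 201 and 7350 ± 686 TPM with a log2 fold change of -0.15 ± 0.08.

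In 3 of the 4 members all mutant libraries lay below all wild-type libraries, and in 0 of 4 all lay above. Over all 12797 genes these arrangements were found for 19.4% and 12.4%, and since the members were chosen on this contrast nothing is read from the count. The median log2 fold change of all genes was -0.04. After rescaling the libraries by median of ratios that median was 8e-04, and the fold changes of all 4 members were still negative.

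Since the members entered with the genotype contrast known, differences between sets of 1 genotype were tested instead. Among the mutant sets Dppa4 (limma F test over 3 sets, adjusted p = 0.0289) and Dppa5a (adjusted p = 0.0268) differed, and Dppa2 (adjusted p = 0.0713) and Dppa3 (adjusted p = 0.681) did not pass. This is 2 of 4 members, where 19.6% of all tested genes differed between mutant sets. The sets moved in opposite ways for the 2 genes. Mutant set 1 was the lowest for Dppa4, at 66.7% of the wild-type mean against 77.3% and 79.5% in sets 2 and 3, and the highest for Dppa5a, at 100% against 85.2% and 86.2%. Neither call was firm. The adjusted p of Dppa4 ran from 0.0216 to 0.0907 over 16 alternatives and lost the call in 11 of them, which included median-of-ratios scaling (0.0857), quantile normalization (0.0843), no filter (0.0539) and leaving out any single mutant library or either library of wild-type set 2. That of Dppa5a ran from 0.00706 to 0.21 and lost the call in 7, which were quantile normalization (0.21), no filter (0.099) and leaving out mutant set 1 replicate 2 (0.0704), set 2 replicate 1 (0.0727) or replicate 2 (0.0609), or set 3 replicate 1 (0.0644) or replicate 2 (0.0655).

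Between wild-type sets no member differed. Set 2 minus set 1 was -0.05 ± 0.05 for Dppa2, 0.03 ± 0.19 for Dppa3, -0.04 ± 0.05 for Dppa4 and 0.05 ± 0.05 for Dppa5a on the log2 scale, with limma adjusted p from 0.616 to 0.95. That is 0 of 4 members, also at an unadjusted p under 0.05, beside 2.75% of all tested genes. The spread over single libraries (coefficient of variation) was between 3.18% and 4.62% in wild type for the 4 members. In the mutant it was 21.7% for Dppa3, 9.31% for Dppa5a, 8.55% for Dppa4 and 6.97% for Dppa2, and these values include the differences between sets.

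**Figure D2:**
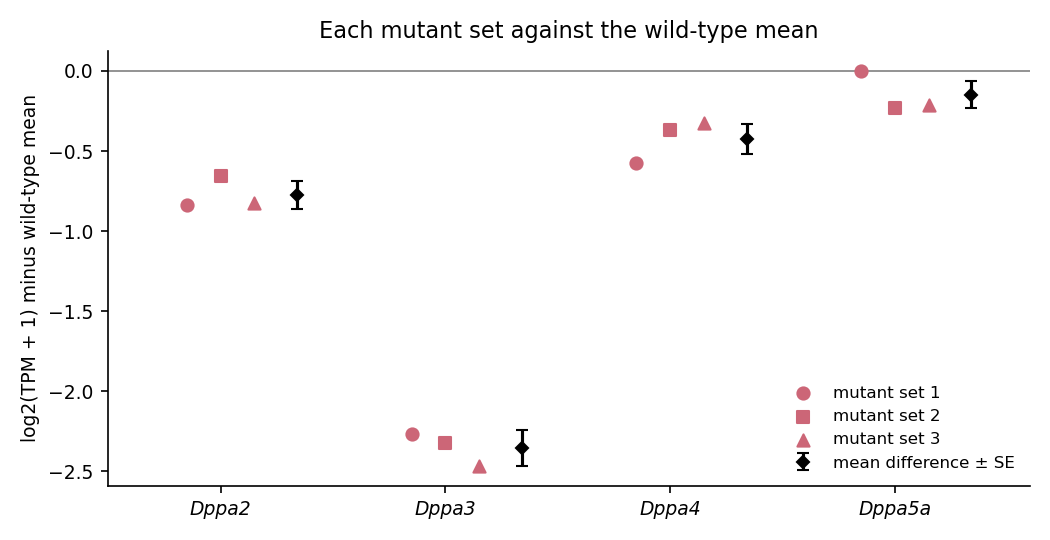
Difference of each mutant set from the wild-type mean on the log2(TPM + 1) scale for the 4 members, with the mean difference and its SE in black. Dppa3 lies near -2.35 in all sets, and for Dppa4 and Dppa5a set 1 stands on opposite sides of sets 2 and 3.

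By set, Dppa3 was at -2.27, -2.32 and -2.47 on the log2 scale relative to wild type in mutant sets 1, 2 and 3, or at 17.4%, 16.7% and 14.4% of its wild-type TPM. Dppa2 was at -0.84, -0.66 and -0.83, with set 2 nearest to wild type. Dppa4 was at -0.57, -0.37 and -0.33, so the order of sets was not the same for the 2 neighbours on chromosome 16.

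The ratio between the partners differed as well. The quotient of Dppa2 to Dppa4 TPM was 0.690 and 0.667 (set 1) and 0.656 and 0.685 (set 2) in wild type. Mutant values were 0.548 and 0.565 (set 1), 0.559 and 0.535 (set 2) and 0.483 and 0.459 (set 3). All mutant ratios lay below all wild-type ratios, with set 3 the lowest, and the means were 0.674 ± 0.00562 (n = 2 sets) and 0.525 ± 0.0470 (n = 3 sets). A ratio of this kind shows unequal change and not which of the genes changed. The ratios are made of members chosen on this contrast and were not set beside other gene pairs, so nothing is read from the lack of overlap. The ratio of Dppa3 to Dppa4 was 0.310 ± 0.00941 in wild type and 0.0682 ± 0.0125 in the mutant. Dppa5a alone made up 0.776% to 0.837% of all TPM in wild-type libraries and 0.682% to 0.861% in mutant libraries, and its rank among all genes lay between 6 and 10 in every library.

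Neighbouring genes were compared to see whether the differences stopped at the members. Right of Dppa2 the next tested gene was Morc1, a germline ATPase that silences transposons (chromosome 16, 48431237 to 48630900), 111.5 kb away. Morc1 was at 53.0, 49.2, 58.8 and 52.1 TPM in the wild-type libraries and at 30.2, 29.8, 35.1, 33.7, 40.7 and 41.1 in the mutant libraries, in the order of sets. It fell from 53.3 ± 3.06 to 35.1 ± 5.51 TPM with no overlap (log2 fold change -0.60 ± 0.13, limma adjusted p = 0.0269). The call was lost without mutant set 1, without either wild-type set, and in 3 other alternatives, with adjusted p up to 0.189. Left of Dppa4 no tested gene lay within 500 kb. The nearest, Nectin3, a cell adhesion molecule 1785.2 kb away, fell from 13.6 ± 0.230 to 10.1 ± 0.426 TPM (-0.39 ± 0.10, limma adjusted p = 0.0359), a call lost when either wild-type set, mutant set 1 or mutant set 3 was left out, and without wild-type set 2 replicate 2 or mutant set 1 replicate 1 alone.

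Around Dppa3, 13 genes were tested within 500 kb, of which 1 rose and 2 fell, while 17.5% of all tested genes were called, 10.5% lower and 6.97% higher. The one to the left at 16.3 kb, Gdf3, a TGF-beta family ligand, was at 40.0 ± 3.77 and 32.9 ± 5.29 TPM and did not pass (-0.28 ± 0.14, limma adjusted p = 0.192). The nearest tested gene to the right, the pseudogene Gm10420, did not pass either (adjusted p = 0.659). Nanog, a core regulator of naive pluripotency 77.2 kb to the right, fell from 543 ± 43.6 to 339 ± 23.2 TPM (-0.68 ± 0.08, adjusted p = 0.00674), with wild-type libraries from 507 to 575 and mutant libraries from 312 to 355. Its call was lost without wild-type set 2. Slc2a3, which encodes the glucose transporter GLUT3 and lies 97.5 kb to the right, rose from 933 ± 88.3 to 1244 ± 118 TPM (0.41 ± 0.10, adjusted p = 0.0327). Mfap5, an extracellular microfibril gene 97.1 kb to the left, fell from 1.97 ± 0.474 to 0.72 ± 0.215 TPM (adjusted p = 0.0388). The calls of Slc2a3 and Mfap5 were each lost when either wild-type set, mutant set 1 or mutant set 3 was left out. That of Mfap5 was also lost without wild-type set 1 replicate 1, wild-type set 2 replicate 2, mutant set 1 replicate 2 or mutant set 2 replicate 2. The direction was not the same along this stretch. The ratio of mutant to wild type was lower for Dppa3 than for any of the 13 genes. Since Dppa3 was chosen on this contrast and its neighbours were not, nothing is read from that order.

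Near Dppa5a, 12 genes were tested within 500 kb, with 1 higher and 2 lower, a share near the 17.5% called over all tested genes. Ooep, a KH-domain gene of the egg's maternal complex 7.9 kb to the right, was at 69.9 ± 3.94 TPM in wild type and 86.3 ± 7.49 in the mutant. All its mutant libraries were above all wild-type libraries, against a lower mean for Dppa5a, but the difference did not pass (0.30 ± 0.09, limma adjusted p = 0.0697). To the left Gsta4, a glutathione transferase 157.7 kb away, fell from 760 ± 23.7 to 591 ± 33.1 TPM (-0.36 ± 0.07, adjusted p = 0.0187). The pseudogene Gm8116, 452.5 kb to the right, fell from 71.8 ± 3.43 to 44.7 ± 3.99 TPM (adjusted p = 0.0088). Rn7sk, the 7SK small nuclear RNA 191.4 kb to the left, passed as higher (0.55 ± 0.10, adjusted p = 0.0187), although its libraries overlapped and those of wild-type set 2 stood at 3.90 and 26.5 TPM. Without wild-type set 2 replicate 1 its log2 fold change was -0.07 (adjusted p = 0.89). The calls of Gsta4 and Gm8116 were both lost without wild-type set 1 or wild-type set 2, and that of Gsta4 also without mutant set 1 or mutant set 3.

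**Figure D3:**
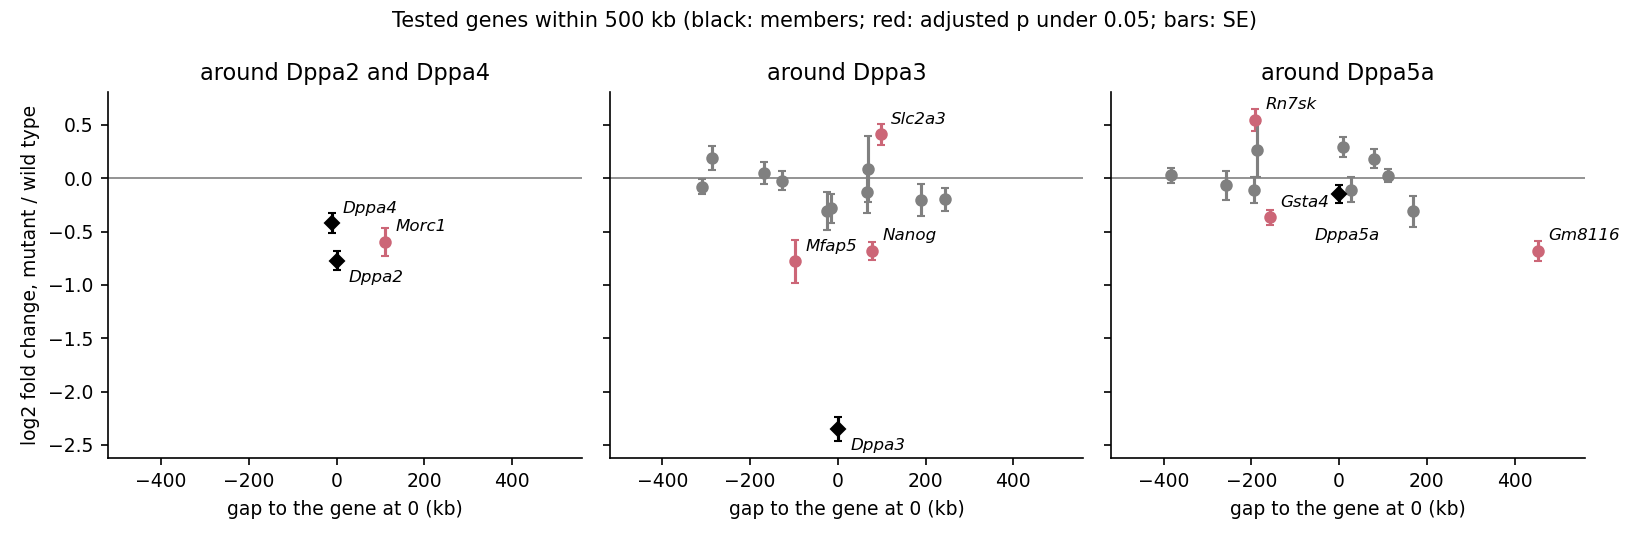
Log2 fold change (mutant over wild type, bars SE) of the tested genes within 500 kb of Dppa2, Dppa3 and Dppa5a against the gap to that gene in kb, negative to the left. Dppa2, Dppa4 and Morc1 all lie below 0, whereas Nanog and Slc2a3 lie on opposite sides of 0 at nearly the same gap from Dppa3.

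Genes tied to DPPA3 through DNA methylation were taken as a list of 14, of which 13 were tested. In this list 0 rose and 3 fell, where 6.97% of all tested genes rose and 10.5% fell, and its median log2 fold change was -0.23 against -0.04 over all genes. Dnmt3a, a methyltransferase that sets new marks, fell from 8.19 ± 1.04 to 3.68 ± 1.001 TPM (-0.99 ± 0.20, limma adjusted p = 0.0219). Hells, a chromatin remodeller needed for methylation, fell from 127 ± 8.76 to 78.4 ± 9.85 TPM (-0.70 ± 0.12, adjusted p = 0.0139). Xpo1, the exportin through which proteins such as DPPA3 leave the nucleus, fell from 163 ± 9.47 to 123 ± 12.7 TPM (-0.40 ± 0.10, adjusted p = 0.0363). The call of Xpo1 was lost in 11 of 29 alternatives. Among them were no filter, quantile normalization, and leaving out mutant set 1 replicate 1 or mutant set 2 replicate 1 alone. The direct partner of DPPA3, Uhrf1, was at 266 ± 1.89 and 246 ± 13.7 TPM and did not pass (-0.11 ± 0.07, adjusted p = 0.289). Dnmt1, the maintenance methyltransferase, was at 109 ± 3.68 and 89.4 ± 7.91 TPM (adjusted p = 0.0739), and Dnmt3l, a cofactor of new methylation, at 109.8 ± 32.97 and 175 ± 37.4 TPM, and neither passed. Tet1 (-0.50, adjusted p = 0.0575) and Tet2 (-0.50, adjusted p = 0.0727) did not pass either. All mutant libraries lay below all wild-type libraries for 8 of the 13, Uhrf1, Dnmt1, Tet1 and Tet2 among them, and above for 0. Over all tested genes these shares were 19.4% and 12.4%. The count called lower became 0 when wild-type set 1 or set 2 was left out or with no filter on low genes, 1 without mutant set 1, 2 without mutant set 3 or with quantile normalization, and 6 with all libraries fitted and the set as a random block.

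Dppa3 also marks primordial germ cells, so 12 germ cell factors were listed, and all were tested. Of these 5 fell and 0 rose, beside 10.5% lower and 6.97% higher among all tested genes, and the median log2 fold change was -0.44 against -0.04 over all. Dazl, an RNA-binding protein of germ cells, fell most, from 16.4 ± 4.45 to 5.03 ± 0.149 TPM (-1.51 ± 0.16, limma adjusted p = 0.00508). Its wild-type libraries were at 13.6 and 12.96 TPM (set 1) and 19.9 and 19.18 TPM (set 2), and its mutant libraries lay between 4.54 and 5.76. Lin28a, which blocks let-7 maturation, fell from 18.4 ± 2.78 to 10.4 ± 1.87 TPM (-0.77 ± 0.17, adjusted p = 0.0254). The membrane proteins Ifitm3 (fragilis), at -0.74 ± 0.12, and Ifitm1, at -0.57 ± 0.11, fell as well (adjusted p = 0.0139 and 0.0187), as did the receptor Kit (-0.40, adjusted p = 0.0298). Prdm14, Prdm1 and Nanos3, regulators of germ cell fate, were at -0.38, -0.54 and -0.48 and Tfap2c at 0.52, and none of these passed (adjusted p = 0.0757, 0.152, 0.140 and 0.159). The 5 lower calls became 0 when wild-type set 2 was left out, 2 for wild-type set 1, mutant set 1 or mutant set 3, and 1 with no filter.

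DPPA2 and DPPA4 keep bivalent promoters, and 19 genes of that machinery were listed and tested. Of these 5 fell and 1 rose, against 10.5% and 6.97% of all tested genes, and the median was -0.14 (-0.04 over all genes). Ezh2, the enzyme of Polycomb complex PRC2, fell from 129 ± 13.6 to 73.0 ± 24.9 TPM (-0.86 ± 0.24, limma adjusted p = 0.0489), a call lost in 20 of 29 alternatives. Jarid2, which guides PRC2 to chromatin, fell from 83.4 ± 3.56 to 55.3 ± 2.96 TPM (-0.59 ± 0.08, adjusted p = 0.00823). The DNA repair gene Brca1, at -0.53 ± 0.10, and the remodeller Smarca5, at -0.49 ± 0.10, also fell (adjusted p = 0.0191 and 0.0206). Dpy30, a shared subunit of H3K4 methyltransferases, fell (-0.45, adjusted p = 0.0223), while the SUMO ligase Pias4 rose (0.37, adjusted p = 0.0333). The methyltransferases Kmt2b (0.24) and Kmt2d (0.13) and the core PRC2 subunits Eed (-0.08) and Suz12 (-0.14) did not pass. Without either wild-type set 0 of the 19 were called lower. Without mutant set 1, 2 were called, without mutant set 3, 3, with no filter, 1, and with the set as a random block, 9.

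**Figure D4:**
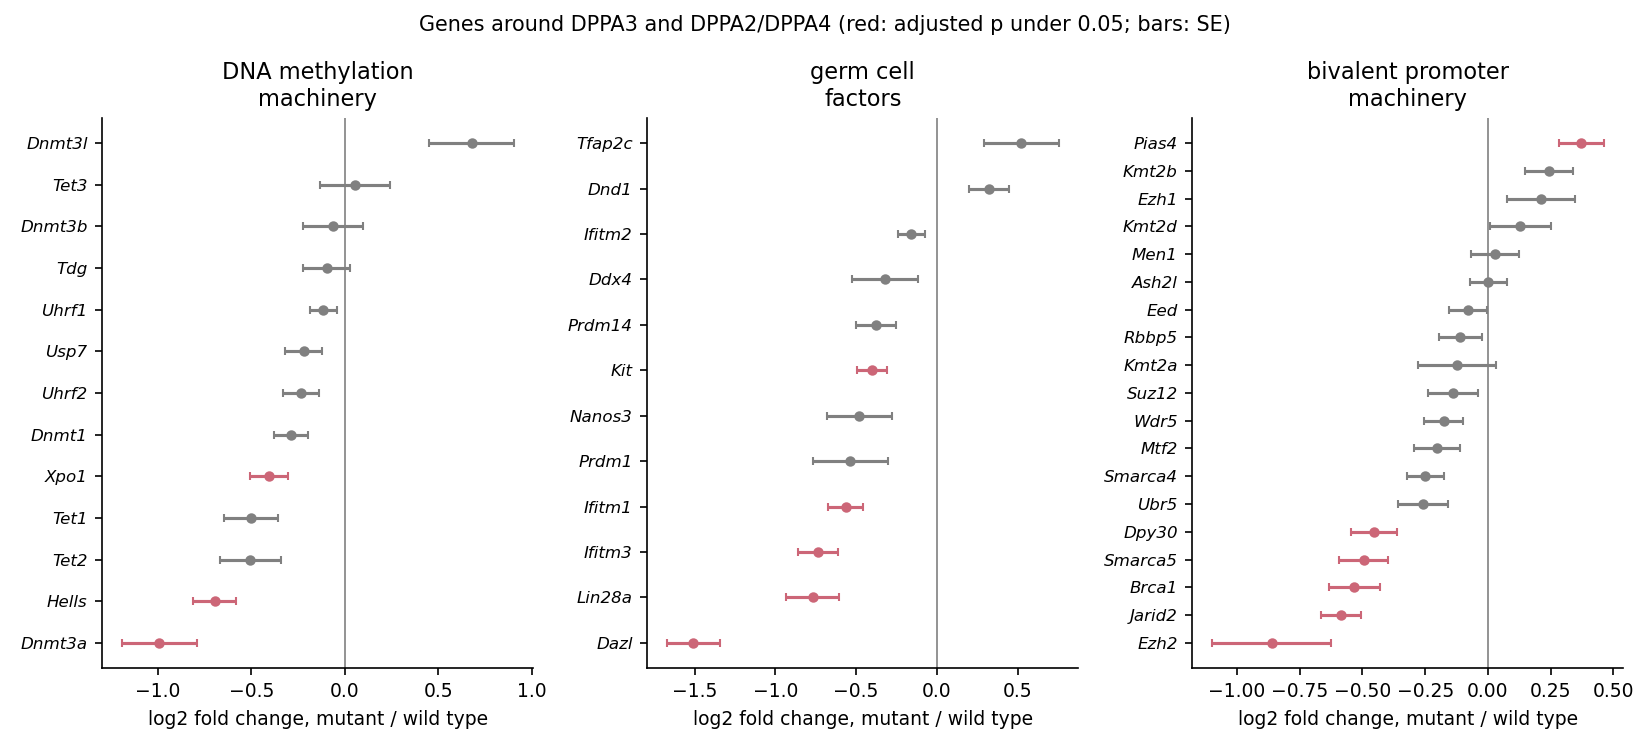
Log2 fold change (mutant over wild type, bars SE) of the tested genes of 3 lists, with genes past an adjusted p of 0.05 in red. Dazl and Dnmt3a are the lowest points of their lists and Uhrf1 lies near 0.

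Targets of DPPA2 and DPPA4 in the 2-cell programme were nearly silent in these cells. Of 25 such genes matched by name in the table, the Zscan4 and Tdpoz genes among them, 24 had a mean under 1 TPM. The 1 tested, Zscan4f, was at 1.88 ± 0.332 and 1.09 ± 0.638 TPM and did not pass (-0.50 ± 0.26, limma adjusted p = 0.221, unadjusted p = 0.0985). The summed level of the 25 genes was 7.38 to 10.04 TPM over wild-type libraries and 2.39 to 5.24 over mutant libraries, without overlap. Among single tested genes, 19.4% had all mutant libraries below all wild-type libraries, while the libraries of Zscan4f overlapped. The sum rests mostly on genes under 1 TPM, and its difference was not tested. Members of these families are near-identical, and the reads may have been assigned to the wrong one. Among 12 repressors of the 2-cell state, 3 fell and 0 rose, with 10.5% and 6.97% of all tested genes doing so, and the median was -0.25 against -0.04 over all genes. They were Lin28a, the PRC1.6 subunit Pcgf6 (-0.51 ± 0.08, adjusted p = 0.0106) and nucleolin, Ncl (-0.36 ± 0.08, adjusted p = 0.0243). Without either wild-type set 0 of the 12 were called, with no filter 1, without mutant set 1 or mutant set 3, 1, and without mutant set 2, 5. Of 2 older direct targets of DPPA2, Nkx2-5 was under 1 TPM and Syce1, a synaptonemal complex gene, did not pass (-0.60 ± 0.18, adjusted p = 0.0604).

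Dppa5a belongs to a group of small KH-domain genes, some of which serve the egg's subcortical maternal complex. These relatives were listed together with other genes of that complex, so the counts are not of KH-domain genes alone. Of 10 listed, 6 were under 1 TPM, and of the 4 tested 1 rose and 0 fell, beside 6.97% and 10.5% of all tested genes. Zbed3, a member of that complex, rose from 9.88 ± 1.29 to 14.2 ± 0.660 TPM (0.49 ± 0.11, limma adjusted p = 0.0292), and the count was 2 after either rescaling. It was 0 with no filter and when either wild-type set, mutant set 1 or mutant set 3 was left out, and the call of Zbed3 was also lost without mutant set 2 or without wild-type set 1 replicate 1. Khdc3, also called Ecat1, was at 26.2 ± 10.3 and 24.6 ± 2.25 TPM and did not pass (adjusted p = 0.913). Ooep, the KH-domain gene near Dppa5a, did not pass either (adjusted p = 0.0697).

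The Dppa genes were found with other transcripts enriched in stem cells, and of 17 such genes tested, 2 rose and 3 fell, beside 6.97% and 10.5% of all tested genes (median -0.04, that of all genes). Nanog, Morc1 and Zfp42 fell, and Slc2a3 and the Nodal co-receptor Tdgf1 rose (0.30 ± 0.06, limma adjusted p = 0.0269). Zfp42, also called Rex1, went from 361 ± 11.8 to 257 ± 42.9 TPM (-0.50 ± 0.13, adjusted p = 0.0419) and was not called after median-of-ratios or quantile scaling, nor without wild-type set 1 replicate 2, mutant set 1 replicate 1 or mutant set 2 replicate 1. Of 15 naive pluripotency factors 2 rose and 2 fell, read against the same shares (median 0.13). The 2 that fell were Nanog and Zfp42, which are also among the 3 stem cell transcripts that fell. Stat3, the effector of LIF, rose from 22.8 ± 2.24 to 42.8 ± 3.35 TPM (0.89 ± 0.10, adjusted p = 0.00617), and Esrrb rose from 247 ± 17.1 to 299 ± 5.99 (0.28 ± 0.07, adjusted p = 0.0365). The call of Esrrb was lost in 9 of 29 alternatives, among them no filter and leaving out any 1 mutant set or mutant set 1 replicate 1 alone. After either rescaling 4 naive factors were higher and 1 lower. Without wild-type set 2, 0 genes of both lists were called in either direction. Without wild-type set 1, mutant set 1 or mutant set 3, none of the stem cell transcripts was called higher.

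By level across libraries, a few genes outside the lists ran most like each member. Likeness was the root mean square difference of log2(TPM + 1) values centred on their own mean over 10 libraries, and since it reads the genotype contrast it is a description. Predicted genes, those with a Gm or Rik name or only an identifier, were passed over. Of the other tested genes, nearest to Dppa2 were Dut (0.05), the nucleotide enzyme dUTPase, Cstf3 (0.06), an RNA 3′ end processing factor, and Cacybp (0.07). For Dppa3 they were Mex3b (0.15), an RNA-binding protein at 6.94 ± 0.308 TPM in wild type and 0.742 ± 0.142 in the mutant, Smtnl1 (0.19) and Dio3 (0.24), the imprinted deiodinase of thyroid hormone. For Dppa4 they were Plekha5 (0.04), Ptdss1 (0.05), a phosphatidylserine synthase, and Pias2 (0.05), a SUMO ligase. For Dppa5a they were Snrpe (0.04), a spliceosomal Sm protein, and the ribosomal protein genes Rps12 (0.05) and Rplp1 (0.05).

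The libraries carried the marks of stem cells. Summed pluripotent markers, 10 genes with Pou5f1 and Sox2 among them, ranged from 3289 to 3510 TPM in wild type and from 2916 to 3273 in the mutant. Of these 10, 2 were called higher (Tdgf1 and Esrrb) and 2 lower (Nanog and Zfp42), all named above. The counts here and for the markers below stand beside 6.97% higher and 10.5% lower over all tested genes. Markers of other cells were low. Primed epiblast markers summed to 93.3 to 95.5 TPM in wild type and 65.3 to 85.3 in the mutant, with 4 of 11 tested, 1 lower (Otx2, -1.64 ± 0.31, limma adjusted p = 0.0182) and Cer1 at 0. Primitive endoderm markers summed to 28.2 to 33.3 and 36.9 to 47.2 TPM, with 2 of 11 tested and both higher, Col4a1 (0.92 ± 0.16, adjusted p = 0.0165) and Lama1 (0.38 ± 0.10, adjusted p = 0.0422). Lama1 alone averaged 28.0 TPM in wild type and 36.8 in the mutant, so it makes up most of this sum. The other 9 markers, Gata6, Gata4 and Sox17 among them, had means under 1 TPM. Trophoblast markers summed to 24.8 to 28.3 and 21.4 to 25.7 TPM, with 6 of 10 tested, Krt18 (0.53, adjusted p = 0.0307) and Krt8 (0.49, adjusted p = 0.0491) higher and Tfap2a (-1.19, adjusted p = 0.0145) lower. Feeder markers summed to 2.43 to 5.47 and 1.5 to 2.55 TPM, with Dcn, Postn and S100a4 at 0 and the 1 tested, Thy1, not passing (adjusted p = 0.0667). Without either wild-type set none of these markers of other cells was called. The call of Krt8 was lost without any 1 of 9 libraries, all but wild-type set 1 replicate 2, and that of Lama1 without wild-type set 1 replicate 2, wild-type set 2 replicate 2, mutant set 1 replicate 1, mutant set 2 replicate 2 or mutant set 3 replicate 2. Their part in the differences of the Dppa genes was not tested.

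Between genotypes 2242 genes differed, of which 892 rose and 1350 fell. Median-of-ratios rescaling gave 1108 that rose and 1096 that fell, and quantile normalization gave 1097 and 1033. Ankrd11 itself was at 58.0 to 66.0 TPM in wild type and 53.4 to 69.0 in the mutant (-0.06 ± 0.10, limma adjusted p = 0.686), and since a change of 1 residue need not alter the level of the mRNA this does not check the labels. Libraries sum to a fixed total, so depth is unknown and no counting error can be given.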

How the data were processed

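Poly(A) RNA of 10 E14 libraries was captured on beads and made into libraries with a VAHTS Universal kit, per the labels' protocols. The deposited table holds TPM per gene and library to 2 decimals, as the authors made it. Trim Galore, STAR, RSEM, DESeq2 and the build mm10 are named, per the submitters' processing notes. Their versions and settings, and the strand mode, are not given in the sources used. Library totals lay between 999999.43 and 1000000.77 TPM. All 10 columns were matched to samples by name.

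A gene was tested if its TPM averaged 1 or more. The replicates of each set were averaged as log2(TPM + 1), and 3 mutant were compared with 2 wild-type sets in limma 3.58.1 under R 4.3.3. The two-sided moderated test used a variance trend, with 3 residual and 4.01 prior degrees of freedom. P-values were adjusted by Benjamini-Hochberg over 12797 genes, with a threshold of 0.05. Differences between sets were tested on the 10 libraries as 5 groups (5 residual degrees of freedom), where the spread within a set may be technical. The scripts were tested on simulated data.

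Positions come from GENCODE M21, in which 55141 identifiers were found, 54349 with the same version. Copies were found with BLAST 2.17.0 on the coding sequences of that release, from which the printed sequences were read with Biopython 1.88. Figures were drawn with matplotlib 3.10.9.

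The members and gene lists were chosen with earlier results of these data known. Named genes were the members, other rows named Dppa, up to 4 called genes of each list by log2 fold change (where none was called, the 2 of smallest p), the nearest tested gene on each side, called genes within 500 kb, and the 3 most alike profiles per member. Predicted genes were passed over for the profiles. Uhrf1, Dnmt1, Dnmt3l, Tet1, Tet2, Kit, Prdm14, Prdm1, Nanos3, Tfap2c, Dpy30, Pias4, Kmt2b, Kmt2d, Eed, Suz12 and Khdc3 were added after their values were seen. Alternatives were pseudocount 0.1, no filter or a mean of at least 5 TPM, rescaling by median of ratios, quantile normalization, 10 libraries with and without blocks, 1 replicate per set, other variance moderation, and leaving out each set or library. Adding the copies to the members was chosen after seeing the data.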

Additional observations from a re-analysis of the deposited data

Results flagged for a closer look

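Ifitm3 was at 202.56 TPM in mutant set 3 replicate 2, which stood apart below the other 5 mutant libraries, at 224.62 to 237.59 TPM. Krt18 was at 6.6 TPM in the same library, above the other 5 at 5.06 to 5.43 TPM. Of 108 groups of libraries checked for the named genes, these 2 (1.9%) had a library whose gap to its neighbour passed Dixon's 95% critical value, and chance passes about 1 in 20. None of the Dppa genes was among them.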

How the results depend on the processing

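The members' differences kept their direction under all 29 alternatives, with log2 fold changes of -0.83 to -0.73 for Dppa2, -2.62 to -2.22 for Dppa3, -0.47 to -0.35 for Dppa4 and -0.22 to -0.10 for Dppa5a. The members were chosen on this contrast. For Dppa2, Dppa3 and Dppa4 the groups did not overlap, so leaving out a set or library could not reverse the direction. The log2 fold change of Dppa3 was -2.62 with a pseudocount of 0.1, -2.22 with replicate 1 libraries alone and -2.48 with replicate 2 libraries alone. The count of genes that differed between genotypes (2242) was 809 with no filter, 5269 over 10 independent libraries, 3398 if sets were a random block, 1172 with replicate 1 and 975 with replicate 2 libraries alone, and 42 to 2393 when a set or library was left out. The lowest counts came without wild-type set 2 (42) or set 1 (196), where 1 set is left to stand for a genotype, and the next when mutant set 1 (654) or set 3 (920) was dropped. With the replicate number as a replicate block the count was 4998, and 5361 with the set number as a replicate block. Across all tested genes, deviations of same-numbered libraries from their set means correlated at -0.076 to 0.116, and those of same-numbered sets at -0.164 and -0.09. These values are low over the genes as a whole, and whether the numbers pair the libraries for some genes was not tested. Of 41 named genes called, only Rn7sk was lost with the replicate block. Its value also reversed, to -0.0746 without wild-type set 2 replicate 1, and was 1.1707 without wild-type set 2 replicate 2. The count of differences between mutant sets (2507) was 1614 with no filter and 1126 to 2809 with a library left out, and that between wild-type sets (352) 46 to 619. Of the 41 named genes, 38 lost their call when wild-type set 2 was left out, 34 for wild-type set 1, 25 for mutant set 1, 20 for mutant set 3, and 29 with no filter. Depth is unknown, and Dppa3 in the mutant, near 3 TPM, has the least precise level of the members.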

Other observations

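Within sets, the libraries numbered replicate 1 and 2 differed the same way for 3 of the Dppa genes. Dppa3 was higher in replicate 1 in all 5 sets, as were 471 of 12797 tested genes (3.68%). Dppa4 and Dppa5a were lower in replicate 1 in all 5 sets, as were 246 tested genes (1.92%). Dppa2 was higher in replicate 1 in 1 of 5 sets. What a replicate number stands for is not given in the labels, and the difference was noticed in the data and was not tested.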
